A study of Mus musculus with 8 samples.

Results

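The genes for titin, for the Z-disc and for the M-band were followed in embryonic mouse hearts with and without Dgcr8, the RNA-binding partner of Drosha in microRNA processing. The members are 9 named genes: Ttn, Actn2, Ldb3, Tcap, Csrp3, Nebl, Mybpc3, Myom1 and Myom2. They were taken by symbol from the 24385 features of the deposited expression table, by a rule that uses gene names alone, though the set was proposed with earlier results of these data known. Mybpc3 encodes a thick filament protein of the A-band and is neither a Z-disc nor an M-band gene, so the set is wider than its name. RNA of whole hearts from embryonic day 8.5 (E8.5) and E9.5 was sequenced in 8 libraries, 2 for each of the groups E8.5 WT, E8.5 cKO, E9.5 WT and E9.5 cKO, all on the C57BL/6 background. Per the study's methods the control embryos, labelled wild type, were homozygous for the floxed Dgcr8 allele (loxP/loxP) with 1 copy of the Rosa26 mT/mG reporter and no Cre. The cKO embryos had the same Dgcr8 and Rosa26 alleles plus 1 Mesp1 Cre allele, so that the groups differ in the Cre allele as well as in Dgcr8. Mesp1 Cre acts in early mesoderm and its progeny, which include cardiomyocytes and endocardium, and heart cells of other origin keep Dgcr8. The sources used here do not say how many embryos went into a library. With 2 libraries a group, an exact permutation test could not give a two-sided p below 0.333, and the tests below pool the spread of all 4 groups in limma.

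Sarcomeres, the contractile units of striated muscle, are bounded by Z-discs and centred on M-bands. Titin, a single giant protein, spans from the Z-disc to the M-band and works as a ruler and a spring. In the Z-disc alpha-actinin cross-links actin filaments, telethonin (Tcap) caps titin, the PDZ and LIM protein Ldb3 (also called ZASP or Cypher) binds alpha-actinin, the muscle LIM protein Csrp3 takes part in mechanical signalling, and nebulette (Nebl) is the short cardiac relative of nebulin. Myomesins cross-link thick filaments in the M-band, and cardiac myosin-binding protein C (Mybpc3) tunes the interaction of myosin with actin. The heart is the first organ to assemble sarcomeres, and these days cover the looping of the heart tube and the start of chamber formation.

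Levels are given in FPKM, the number of fragments divided by transcript length and by library size. Dgcr8 itself was at 7.10 and 8.60 FPKM in the WT pair and 1.64 and 4.67 in the cKO pair of E8.5, while a day later WT held 3.49 and 3.23 and cKO 1.15 and 1.77. It was lower in both cKO libraries than in both WT libraries at each stage, with differences of -1.19 and -0.84 on the log2(FPKM + 1) scale and adjusted p-values of 0.59 and 0.317 (limma), the first being -1.74 (adjusted p = 0.0795) without E8.5 cKO replicate 2, described next. The summed level of 8 cardiomyocyte markers was 25785 to 42624 FPKM in WT and 39217 to 56885 in cKO at E8.5, then 56845 to 58678 in WT and 80121 to 80267 in cKO, which places cardiomyocyte RNA in every library. The 6 listed skeletal muscle markers summed to between 1.33 and 2.82 FPKM. E8.5 cKO replicate 2 stood apart: its 5 decidual genes, which mark maternal tissue, summed to 5383 FPKM, against 12.01 in the other E8.5 cKO library, 512 and 1222 in E8.5 WT and at most 6.58 at E9.5. Both E8.5 WT libraries thus also held decidual RNA. Of 4 tested decidual genes 3 were called lower over the day in WT (median -4.40), beside 46.7% of all tested genes. In cKO 0 were called lower (median -3.01). Without E8.5 cKO replicate 2 their median difference between cKO and WT at E8.5 was -4.21, against -1.17 with it. Leaving this library out therefore does not balance the decidual RNA of the genotypes. Calls of the members that rest on E8.5 cKO replicate 2 are given with and without it. The other E8.5 cKO library, on which those values then rest, was the highest of its stage for 6 markers of yolk sac endoderm, with a sum of 6733 FPKM against 745 to 2562 in the other 3 libraries of E8.5 and 4236 to 6491 at E9.5. None of these markers was called between genotypes, although 6 of 6 had positive estimates in cKO at E8.5 (median 1.34), and 1 of 6 was called higher over the day in WT (median 1.52). The 6 erythroid markers summed to 7779 to 35489 FPKM at E8.5 and 14429 to 39583 at E9.5, and 0 of 6 were called between genotypes at E9.5, where their median difference was 0.90. The part of these cells in the results was not tested. Absolute depth is unknown, and steps between low values give a relative depth of 1 to 1.45 across the libraries. Loci shorter than 300 bp, where FPKM is inflated, took 15.7% and 16.2% of the summed FPKM of WT against 38.6% and 50.5% of cKO at E8.5, and 22.4% and 18.4% of WT against 54.5% and 18.3% of cKO at E9.5. Thus the E8.5 genotypes differed in this share without overlap and E9.5 cKO replicate 1 stood apart from its pair, and its part in the results was not tested beyond the scaling on longer loci.

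Promoter sequence of the members is given first, so that the motifs can be set beside the values that follow. RefSeq (GRCm38.p6) gave 12 promoter entries for 7 of the 9 members, with none for Tcap and Myom2. The 150 bases before the transcription start were searched on both strands for the CArG box (the site of serum response factor), the MEF2 site, the MCAT element CATTCC, the GATA motif AGATAA, the E-box CANNTG, the NK-type motif AAGTG and the TATA motif TATAAA, where an AAGTG can overlap an E-box. The MEF2 site was in 1 of the 12 entries (Mybpc3) and in 0.332% of all 32851 promoter entries. The CArG box was in 3 of the 12 (both entries of Ldb3, which overlap and share the same match, and Myom1) and in 0.916% of all. The GATA motif was in 3 entries (Myom1 and 2 of Nebl) and in 5.65% of all, the E-box in 7 and in 47.7% of all, and the NK-type motif in 2 and in 26.4% of all. MCAT and TATA were in 0 of the 12, against 7.59% and 7.57% of all. The windows below are for the 3 genes with the highest levels and for 2 genes with a CArG box, at chr7:48848052-48848201 on the minus strand for Csrp3, chr13:12340733-12340882 on the minus strand for Actn2, chr2:91117994-91118143 on the plus strand for Mybpc3, chr14:34588682-34588831 on the minus strand for Ldb3 and chr17:71019407-71019556 on the plus strand for Myom1. Capitals mark MEF2, CArG and GATA matches, and the letters of Csrp3 and Actn2 hold none of these in this window.
Csrp3: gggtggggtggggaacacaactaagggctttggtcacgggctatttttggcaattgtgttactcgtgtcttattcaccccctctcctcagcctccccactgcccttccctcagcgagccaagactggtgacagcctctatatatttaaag
Actn2: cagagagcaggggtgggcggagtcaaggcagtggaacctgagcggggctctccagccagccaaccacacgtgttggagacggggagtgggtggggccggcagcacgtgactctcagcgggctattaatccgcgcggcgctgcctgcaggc
Mybpc3: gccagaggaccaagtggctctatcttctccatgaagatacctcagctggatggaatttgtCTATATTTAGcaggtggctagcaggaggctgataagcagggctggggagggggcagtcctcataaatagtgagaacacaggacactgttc
Ldb3: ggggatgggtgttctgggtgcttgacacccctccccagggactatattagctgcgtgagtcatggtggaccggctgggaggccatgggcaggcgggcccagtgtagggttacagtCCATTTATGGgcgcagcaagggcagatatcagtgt
Myom1: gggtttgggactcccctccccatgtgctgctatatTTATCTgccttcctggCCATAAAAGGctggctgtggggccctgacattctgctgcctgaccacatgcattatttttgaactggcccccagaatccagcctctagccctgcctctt

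**Figure D1:**
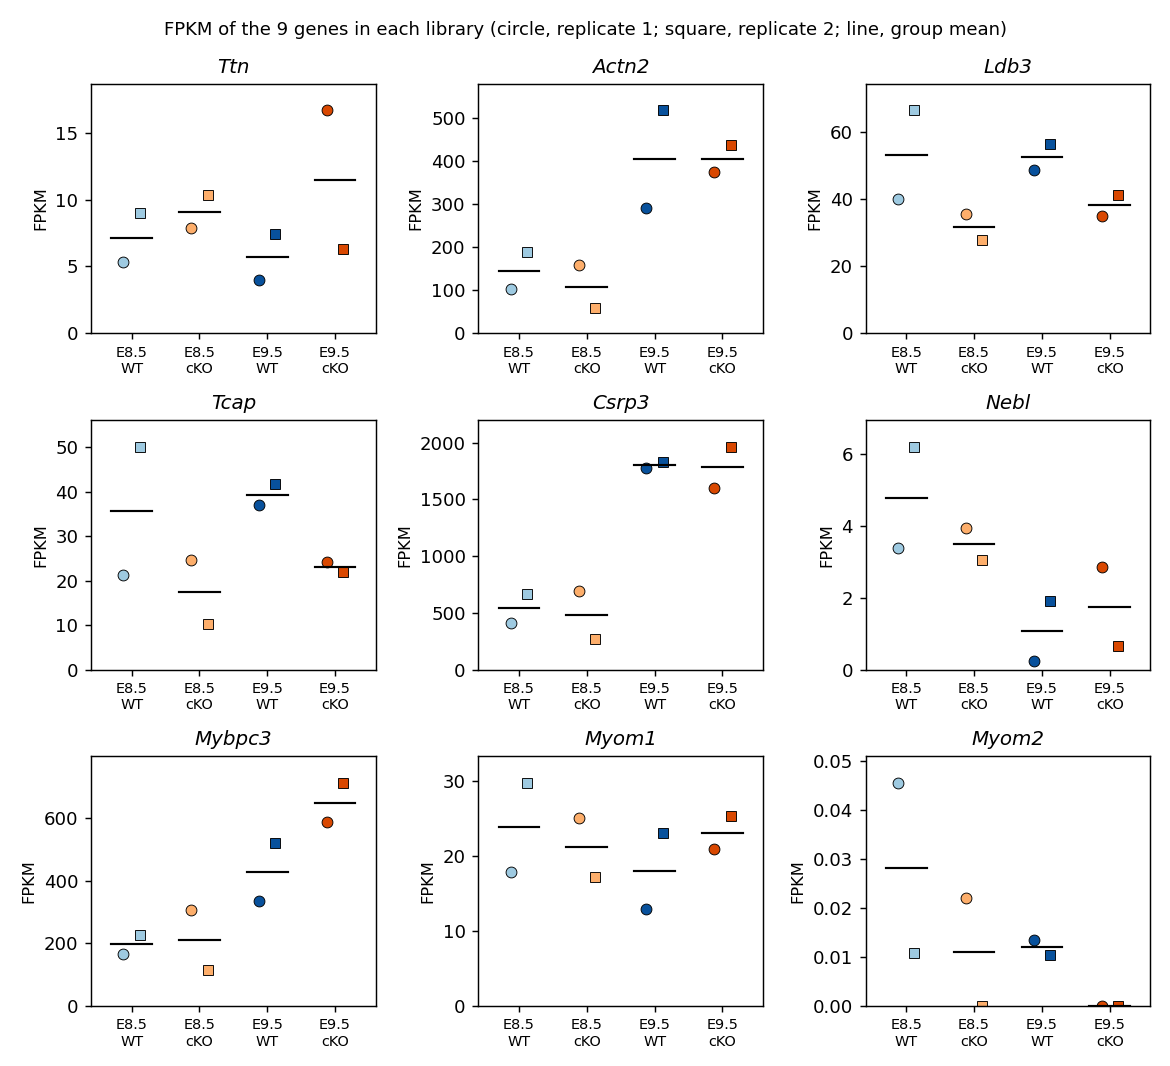
FPKM of each of the 9 genes (vertical axes, linear, from 0, own scale per gene) in the 8 libraries by group. Circles are replicate 1, squares replicate 2, and lines the mean of the pair. Both E9.5 groups lie above both E8.5 groups for Csrp3, Actn2 and Mybpc3. For Ldb3 both cKO libraries lie below both WT libraries of their stage, as do 40.1% of all tested genes at E8.5 and 31.1% at E9.5.

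The 9 genes covered a wide range of levels, and 3 of them made up most of the signal. Csrp3, Mybpc3 and Actn2 together took 86.6% to 92.3% of the summed FPKM of the 9 genes at E8.5 and 95.6% to 97.0% at E9.5. In E9.5 WT the order by FPKM was Csrp3, then Mybpc3 and Actn2, then Ldb3, Tcap, Myom1, Ttn, Nebl and Myom2. Of these neighbours only Mybpc3 and Actn2 overlapped between the 2 libraries. In E8.5 WT Mybpc3 and Actn2, Ldb3 and Tcap, Tcap and Myom1, and Ttn and Nebl each overlapped with their neighbour. FPKM corrects for length, but the transcript models behind it are not given, which matters most for a gene as long and as variably spliced as Ttn.

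Over the day from E8.5 to E9.5, alpha-actinin and the muscle LIM protein rose in both genotypes, myosin-binding protein C rose in cKO, and titin, myomesin, Ldb3 and telethonin were not called in either. A gene was called when its change had an adjusted p under 0.05 (limma on log2(FPKM + 1), Benjamini-Hochberg over 10018 genes averaging 1 FPKM or more) and was at least 1.5-fold. Myom2 fell below this floor, so 8 of the 9 members were tested. In WT 2 members were called higher, where 1.4% of all tested genes were, and 1 was called lower, where 46.7% were. In cKO 3 members were called higher, against 2.05% of all genes, and 0 were called lower, against 28.5%. The split of rising and falling genes changed with the scale, and the median change over all genes was -0.84 (log2) in WT and -0.64 in cKO. When the libraries were rescaled to equal medians (median-ratio scaling) the split of all genes became 321 higher and 69 lower in WT and 400 higher and 77 lower in cKO, and when they were centred on the cardiomyocyte markers it became 42 and 8428 in WT and 45 and 7406 in cKO. With median-ratio scaling the members called in either genotype were Csrp3, Actn2 and Mybpc3, all higher. With the centring they were Ttn, Myom1 and Nebl in WT, all lower, and in cKO Csrp3 and Actn2, higher, and Nebl, lower. The median change of the 8 members was 0.14 in WT and 0.39 in cKO, and 7 of the 8 lay above the median gene in each. The WT median turned to -0.34 without E8.5 WT replicate 1 and was 0.62 without replicate 2 and 0.047 without E9.5 WT replicate 2. Without E8.5 cKO replicate 2 the cKO median was 0.23, and 1 member (Csrp3) was called. In bulk RNA, fewer cells of a type and less RNA per cell cannot be told apart, and over the same day 4 of 8 cardiomyocyte markers were called higher in WT and 3 of 8 in cKO (0 of 8 without E8.5 cKO replicate 2). Nkx2-5 was not called, at -0.82 in WT and -0.02 in cKO, the latter being 0.96 without E8.5 cKO replicate 2.

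Csrp3 (chr7:48830398-48848051, GRCm38) had the highest level and the best separated change. WT hearts went from 408 and 668 FPKM to 1776 and 1830, and cKO hearts from 693 and 271 FPKM to 1598 and 1965. Every E9.5 library was above every E8.5 library. Csrp3 rose by 1.79 on the log2(FPKM + 1) scale in WT (3.45-fold, SE 0.45, adjusted p = 0.0193) and by 2.03 in cKO (4.08-fold, SE 0.45, adjusted p = 0.0200). Its direction was the same under all 4 other scalings, from 0.93 with the libraries centred on cardiomyocyte markers to 2.78 with median-ratio scaling in WT. The WT call was lost under that centring and under quantile normalization, the cKO call under quantile normalization and, among the other settings, without the floor on mean FPKM (adjusted p = 0.0564), and the call in cKO stood without E8.5 cKO replicate 2 (1.35, adjusted p = 0.0387).

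Actn2 (chr13:12269427-12340732), the sarcomeric alpha-actinin, was at 104 and 188 FPKM in WT at E8.5 and 291 and 518 a day later. The cKO hearts had 158 and 59.3 FPKM at E8.5 and 374 and 437 at E9.5. The E9.5 values lay above all E8.5 values, and the lowest of the 8 was E8.5 cKO replicate 2. Actn2 rose by 1.47 in WT (2.77-fold, SE 0.52, adjusted p = 0.0465) and by 2.05 in cKO (4.15-fold, SE 0.52, adjusted p = 0.0266). In WT the change ran from 0.62 with the libraries centred on cardiomyocyte markers to 2.46 with median-ratio scaling, and it was called only under the latter of the 4 other scalings. In cKO it was called under 3 of the 4, with quantile normalization as the exception. Without E8.5 cKO replicate 2 the cKO change was 1.35 and was not called (adjusted p = 0.0696).

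Mybpc3 (chr2:91118144-91136516), the thick filament member, went from 166 and 226 FPKM to 335 and 520 in WT. In cKO it was at 306 and 115 FPKM on the first day and 586 and 712 on the second. In both genotypes the stages did not overlap. The change in WT was 1.11 and missed the threshold (2.15-fold, SE 0.47, adjusted p = 0.0772), though it was called with median-ratio scaling (2.10, adjusted p = 0.0424) and in a fit of the WT libraries alone (adjusted p = 0.0306). In cKO Mybpc3 rose by 1.78 (3.43-fold, SE 0.47, adjusted p = 0.0296). The cKO call was lost when libraries were centred on cardiomyocyte markers (0.87) and under quantile normalization (1.87), and without E8.5 cKO replicate 2 the change was 1.07 with an adjusted p of 0.0641. The difference between both changes, tested as an interaction term, was 0.67 (SE 0.66, adjusted p = 0.863), and it was -0.031 without that library.

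Nebl (chr2:17346734-17731068) went the other way. WT hearts held 3.37 and 6.20 FPKM at E8.5 but 0.232 and 1.91 at E9.5, and cKO hearts 3.94 and 3.05 FPKM at E8.5 but 2.85 and 0.649 at E9.5. Each E9.5 library was below both E8.5 libraries of its genotype. Nebl fell by 1.57 in WT (SE 0.52, adjusted p = 0.0399), and in cKO its change was -0.83 (SE 0.52, adjusted p = 0.233), or -0.97 without E8.5 cKO replicate 2. Relative to the median gene the WT change was -0.73, and it was not called under median-ratio scaling (-0.91, adjusted p = 0.399) or quantile normalization. The cKO change was -0.34 and -0.17 under these 2 scalings. With the libraries centred on cardiomyocyte markers it was -1.74 and was called. The microRNA locus Mir6419 lies within Nebl and is listed at 0 in every library.

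Not overlapping between the stages were 3 members on the high side (Csrp3, Actn2 and Mybpc3) and 1 on the low side (Nebl) in both genotypes. Of all tested genes 5.43% were higher in both E9.5 WT libraries than in both E8.5 WT libraries and 80.1% were lower, and in cKO the shares were 7.05% and 62.7%. Leaving out any 1 of the 4 WT libraries ended the WT calls of Csrp3 and Actn2, with adjusted p-values of 0.0591 to 0.222 (limma). The WT call of Nebl stood only without E9.5 WT replicate 2 (adjusted p = 0.0329) and otherwise had adjusted p-values of 0.0954 to 0.197. In cKO the calls of Csrp3, Actn2 and Mybpc3 all ended without E9.5 cKO replicate 1 or replicate 2. They all stood without E8.5 cKO replicate 1, with changes of 2.71, 2.75 and 2.48. That fit rests on E8.5 cKO replicate 2, the library with the most decidual RNA, as the only library of its group. In WT the number of genes called over the whole table fell to between 32 and 2289 from 4823.

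**Figure D2:**
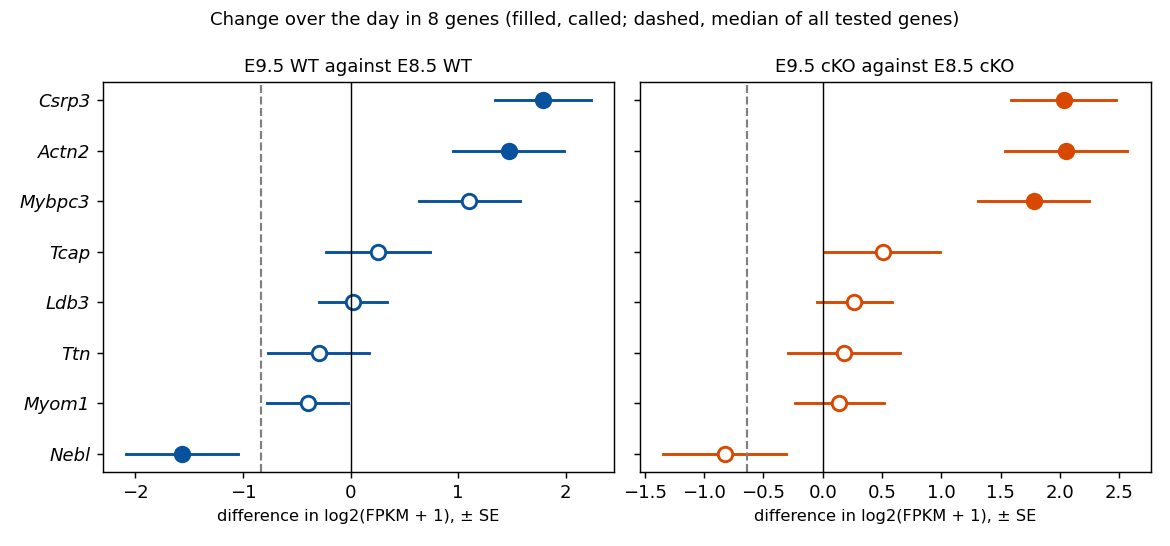
Change over the day in log2(FPKM + 1) with its SE for the 8 tested members in WT (left) and cKO (right), n = 2 libraries a group. Filled points were called, and the dashed line is the median of all tested genes, at -0.84 in WT and -0.64 in cKO. Csrp3 and Actn2 are filled on both sides, Mybpc3 on the right and Nebl on the left.

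The remaining members had no called change with stage. Ttn (chr2:76703984-76982547) was at 5.30 and 9.02 FPKM in the younger and 3.99 and 7.40 in the older WT hearts, and at 7.87 and 10.3 FPKM in the younger and 16.7 and 6.29 in the older cKO hearts. The libraries of E9.5 cKO differed the most, and replicate 1 held the highest value of all 8. The changes of Ttn were -0.29 in WT (SE 0.47, adjusted p = 0.597) and 0.18 in cKO (SE 0.47, adjusted p = 0.781), the latter being 0.36 without E8.5 cKO replicate 2. Myom1 (chr17:71019557-71126856), the myomesin of the M-band, was at 17.8 and 29.7 FPKM in WT and 25.04 and 17.2 in cKO at E8.5, and at 12.9 and 23.0 in WT and 20.9 and 25.3 in cKO at E9.5. All 4 groups overlapped, and its changes were -0.40 (adjusted p = 0.378) and 0.14 (adjusted p = 0.786), and the sign of the second turned without E8.5 cKO replicate 2 (-0.12). For Ttn and Myom1 the sign in WT depended on the scale: it was positive with median-ratio scaling (0.55 for each) and with quantile normalization, and with the libraries centred on cardiomyocyte markers both were called lower (-1.15 and -1.25).

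Myom2 (chr8:15057653-15133419), the second myomesin, which marks mature fast and adult cardiac muscle, was near 0 throughout. Its FPKM was 0.0456 and 0.0109 (WT) and 0.0220 and 0 (cKO) at E8.5, and 0.0136 and 0.0105 (WT) and 0 in both cKO libraries at E9.5. Scaled by relative depth these values are, in this order, 3, 1, 2, 0, 1, 1, 0 and 0 times the smallest step, within 0.0122 of whole numbers, so that each library held at most a few fragments of it. A difference between groups was not detectable at this depth. Myom1 was the highest of the myomesins in every library, and the third family member, Myom3, was at 0 to 0.155 FPKM.

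In the comparison of genotypes no member was called at either stage. At E9.5, 0 of 8 members were called higher and 0 lower by limma, with 0 at an unadjusted p under 0.05, beside 0.17% and 0.00998% of all genes. At E8.5 the counts were also 0 and 0, with 0 at an unadjusted p under 0.05, beside 0.00998% and 0% of all genes. With the libraries centred on cardiomyocyte markers the table as a whole had 34 higher and 145 lower calls at E9.5 (17 and 1 on the deposited scale) and 5 and 39 at E8.5 (1 and 0), and again no member was called. The median difference of the members at E8.5 was -0.30, beside -0.28 for all tested genes. Without E8.5 cKO replicate 2 it turned to 0.14, beside -0.24, with the signs of Actn2, Mybpc3, Myom1 and Csrp3 turning as well. At E9.5 the median was 0.23 for the members and -0.07 for all tested genes. A missed threshold with 2 libraries a group leaves wide intervals. At E9.5 the 95% interval of the difference ran from -1.13 to 1.25 for Actn2 and from -1.05 to 1.004 for Csrp3, whose estimates were 0.06 and -0.03, and from -0.27 to 1.89 for Ttn, whose estimate was 0.81. The last was 0.17 without E9.5 cKO replicate 1 and 1.45 without replicate 2, and 0.43 and 1.18 without E9.5 WT replicate 1 and 2.

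The members with the lowest estimates for cKO against WT at both stages were Ldb3 and Tcap. Ldb3 (chr14:34526699-34588681) was at 40.04 and 66.4 FPKM in WT against 35.4 and 27.9 in cKO at E8.5, and at 48.7 and 56.5 in WT against 35.02 and 41.2 in cKO at E9.5. Both cKO libraries were below both WT libraries at each stage, as were 40.1% of all tested genes at E8.5 and 31.1% at E9.5. The estimates were -0.70 (SE 0.31, adjusted p = 0.59) on the first day and -0.45 (SE 0.31, adjusted p = 0.543) on the second, and without E8.5 cKO replicate 2 the first was -0.53. Over the day the change of Ldb3 was 0.02 in WT (95% interval -0.70 to 0.74) and 0.27 in cKO (-0.45 to 0.99), or 0.10 in cKO without that library, and neither was called.

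Tcap (chr11:98383811-98384953) was at 21.2 and 50.2 FPKM in WT against 24.7 and 10.2 in cKO on the first day, and at 37.1 and 41.6 against 24.2 and 22.1 on the second. The genotypes overlapped at E8.5 and were apart at E9.5. For Tcap the estimates were -0.99 (SE 0.48, adjusted p = 0.59) and -0.74 (SE 0.48, adjusted p = 0.521). Without E8.5 cKO replicate 2 the E8.5 difference was -0.39. Relative to the median gene the estimates at E8.5 and E9.5 were -0.71 and -0.67 for Tcap and -0.42 and -0.38 for Ldb3. The sign was negative for Ldb3 and Tcap at both stages under all 4 other scalings and with each library left out, though never past the threshold.

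Mybpc3 at E9.5 was the opposite case, with both cKO libraries above both WT libraries and a difference of 0.63 (SE 0.47, 95% interval -0.45 to 1.70, adjusted p = 0.58). At E9.5, 1 member was thus higher and 2 were lower without overlap, where 21% and 31.1% of all genes were. At E8.5 0 members were higher and 1 was lower, against 2.54% and 40.1% of all genes. Such shares are near or below the background. The interaction of stage and genotype was called for 0 members (0 at an unadjusted p under 0.05), beside 0.0299% of genes higher and 0.00998% lower, with estimates of 0.24 to 0.74 and adjusted p-values of 0.863 to 0.96. Without E8.5 cKO replicate 2 these estimates ran from -0.43 to 0.65, with adjusted p-values of 0.867 to 0.996, and their median went from 0.51 to 0.023.

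**Figure D3:**
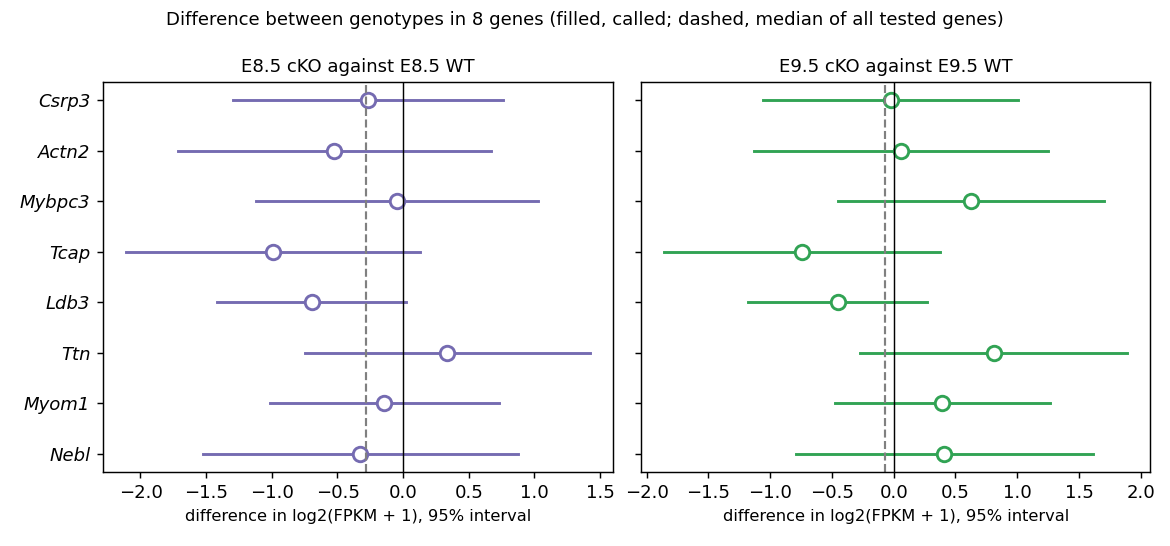
Difference between cKO and WT in log2(FPKM + 1) with its 95% interval for the 8 tested members at E8.5 (left) and E9.5 (right), n = 2 libraries a group. All points are open because none was called, every interval includes 0, and Tcap and Ldb3 have the lowest estimates at both stages. The dashed line is the median of all tested genes, at -0.28 (left) and -0.07 (right).

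Because the cardiomyocyte markers differed between libraries, the members were also set against them within each library. Relative to the mean log2(FPKM + 1) of the 8 markers, Ldb3 at E8.5 was at -4.37 and -4.58 in WT against -5.38 and -5.52 in cKO, and at E9.5 at -5.35 and -5.27 against -6.19 and -6.00. Tcap at E8.5 was at -5.25 and -4.98 in WT against -5.89 and -6.89 in cKO, and at E9.5 at -5.73 and -5.70 against -6.71 and -6.87. On this scale both genes were lower in cKO than in WT of the same stage in every library, as were 21.6% of all tested genes. At E8.5 5 of the 8 members had this order (Actn2, Myom1 and Nebl besides these) against 31.3% of all genes, and at E9.5 3 of the 8 (Csrp3 besides these) against 55%. The reverse order was seen in 0 members at either stage, against 0.299% of all genes at E8.5 and 7.08% at E9.5, and the median gene was itself at -0.56 and -0.40. The estimates between genotypes were -0.98 and -0.79 for Ldb3 and -1.27 and -1.08 for Tcap at E8.5 and E9.5, with adjusted p-values of 0.405 to 0.599, and those at E8.5 were -0.91 and -0.77 without E8.5 cKO replicate 2. For Actn2 and Mybpc3 that library was the lowest of all 8.

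**Figure D4:**
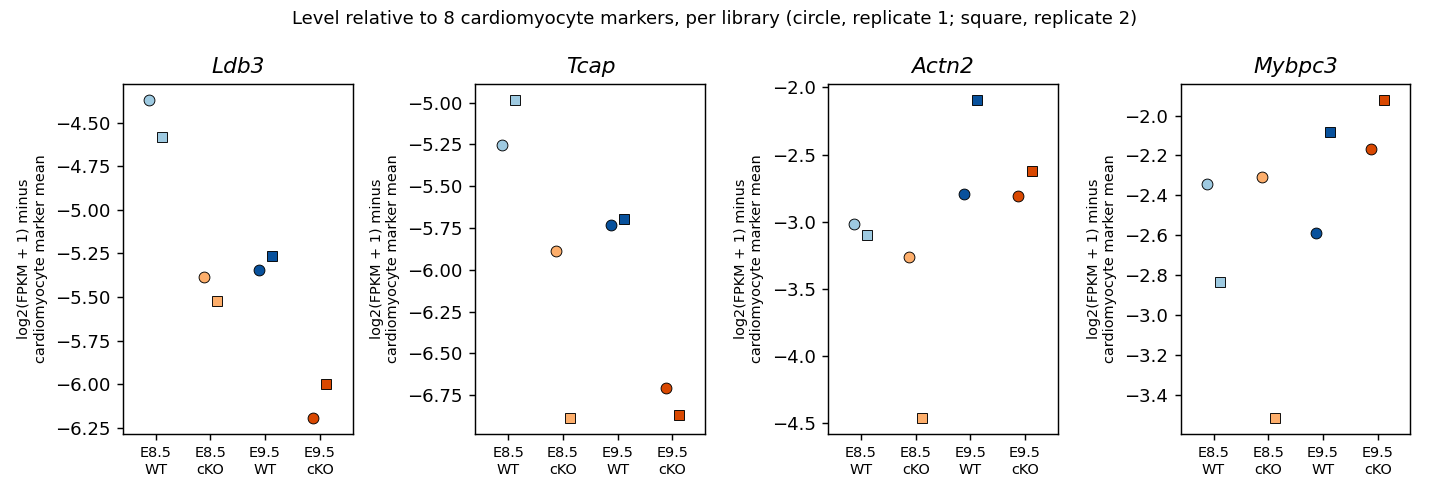
log2(FPKM + 1) of Ldb3, Tcap, Actn2 and Mybpc3 minus the mean of 8 cardiomyocyte markers in the same library (vertical axes, log2 units, own range per gene, not from 0), by group. Circles are replicate 1 and squares replicate 2. For Ldb3 and Tcap both cKO points lie below both WT points of their stage, and for Actn2 and Mybpc3 the lowest point is E8.5 cKO replicate 2.

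Ratios of FPKM between members in the same library are not changed by a scaling factor for that library, though they are by quantile normalization. Csrp3 was 3.53 to 6.10 times Actn2 in FPKM in the 8 libraries. Ldb3 per Actn2 went from 0.386 and 0.354 to 0.167 and 0.109 in WT and from 0.225 and 0.470 to 0.0936 and 0.0944 in cKO. Myom1 per Actn2 went from 0.158 to 0.290 at E8.5 down to 0.0443 to 0.0579 at E9.5, with no overlap. Tcap per Ldb3 stayed between 0.367 and 0.763 in all libraries. Mybpc3 per Actn2 was 1.604 and 1.201 in WT against 1.94 in both cKO libraries at E8.5, and 1.15 and 1.005 in WT against 1.57 and 1.63 in cKO at E9.5, and was higher in cKO than in WT at both stages without overlap. These ratios were chosen after the values were seen and carry no test.

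Across the 8 libraries the members fell into a group of Csrp3, Actn2 and Mybpc3, with Pearson correlations of log2(FPKM + 1) of 0.939 to 0.974, and a pair of Ldb3 and Tcap, with 0.934. All these points share the stage difference and the depth of their libraries, and the coefficients are a description. The 5 genes outside the set with the profile most like the mean standardized profile of the 8 tested members were Coro6 (0.953), Slc4a1 (0.930), Synpo2l (0.928), Trim55 (0.897) and Sec14l1 (0.885). Synpo2l encodes a Z-disc protein and Trim55 a ubiquitin ligase that binds titin, while Slc4a1 is the anion exchanger of red blood cells. Synpo2l was at 27.6 and 63.0 FPKM in WT and 27.9 and 12.2 in cKO at E8.5 and at 37.5 to 59.9 in the 4 libraries of E9.5, and was lowest, as was Actn2, in E8.5 cKO replicate 2.

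Alpha-actinin and the muscle LIM protein have relatives outside striated muscle, and 3 of these 4 were called lower in WT, as were 46.7% of all tested genes. Actn1, a non-muscle alpha-actinin of focal adhesions and stress fibres, fell by 1.52 (SE 0.23, adjusted p = 0.0114), from 9.83 and 8.26 FPKM to 2.42 and 2.54. Csrp2, the LIM protein of smooth muscle and early mesenchyme, fell by 1.39 (SE 0.32, adjusted p = 0.0160), from 1187 and 1640 FPKM to 679 and 414, and Csrp1 fell by 1.18 (SE 0.38, adjusted p = 0.0357). Actn4 was not called, at 0.32 (adjusted p = 0.432). The falls of Actn1, Csrp1 and Csrp2 kept their sign under all 4 other scalings but shrank to -0.70, -0.20 and -0.39 with median-ratio scaling, where none was called. In cKO the changes were -0.62 for Actn1, -0.88 for Csrp2 and 0.38 for Csrp1, none called, and the interactions of the 3 genes were not called.

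Within a library, Csrp3 made up 24.8% and 28.0% of the summed FPKM of Csrp1, Csrp2 and Csrp3 in WT and 29.5% and 15.7% in cKO at E8.5, and 71.6% and 80.6% in WT and 61.6% and 71.4% in cKO at E9.5. The main LIM transcript of the family was thus Csrp2 at E8.5 and Csrp3 at E9.5, in every library of both genotypes. Actn2 made up 71.6% and 74.4% of the summed FPKM of Actn1, Actn2 and Actn4 in WT and 81.1% and 53.0% in cKO at E8.5, and 84.8% and 89.8% in WT and 83.7% and 86.3% in cKO at E9.5. All E9.5 shares were above all E8.5 shares. The share was lowest in E8.5 cKO replicate 2, and the part of non-cardiac cells in these shares was not tested. Actn3, the fast skeletal alpha-actinin, was at 0.244 to 2.19 FPKM, Neb at 0 to 0.0116, Mybpc1 at 0 to 0.786 and Mybpc2 at 0 to 0.0188.

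**Figure D5:**
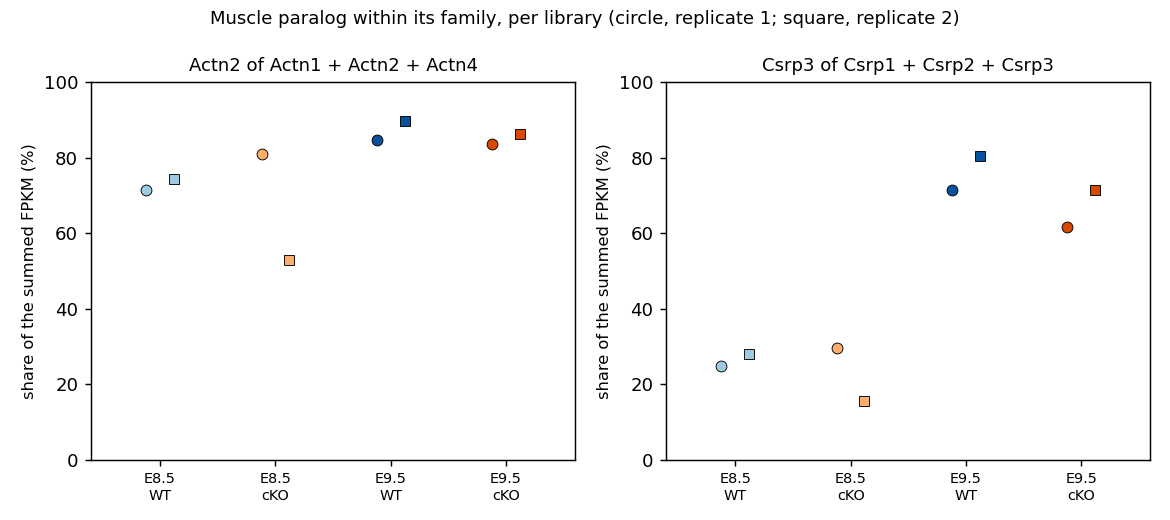
Share (in percent, axis from 0 to 100) of Actn2 in the summed FPKM of Actn1, Actn2 and Actn4 (left) and of Csrp3 in that of Csrp1, Csrp2 and Csrp3 (right) in each library, by group. Circles are replicate 1 and squares replicate 2. The Csrp3 share is 15.7% to 29.5% at E8.5 and 61.6% to 80.6% at E9.5.

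Partners of the members were counted on fixed lists. Of 17 further Z-disc genes 13 were tested, and in WT 2 were called higher and 3 lower over the day, with a median change of -0.41 beside -0.84 for all genes and with 1.4% and 46.7% of all genes called higher and lower. Myoz2, which encodes the calcineurin-binding calsarcin of the Z-disc, went from 0.0748 and 0.221 FPKM to 3.06 and 8.08. It is 1 of the 2 called higher, but it passed the floor on mean FPKM only through E9.5 WT, in which it is high, so its call supports nothing. Des, the muscle intermediate filament desmin, rose by 1.26 (SE 0.29, adjusted p = 0.0161). Nexn, an actin-binding Z-disc protein, fell by 1.97 (adjusted p = 0.0388) and Pdlim5, a PDZ and LIM relative of Ldb3, fell by 1.17 (adjusted p = 0.0325). With median-ratio scaling these 2 were at -1.12 and -0.19 and with quantile normalization at -0.98 and -0.44, not called in either. The WT call of Des stood in 2 of the 4 other scalings. In cKO 3 of the 13 were called higher and 0 lower, with a median of 0.45 beside -0.64 and with 2.05% and 28.5% of all genes called, and Des rose by 1.75. Without E8.5 cKO replicate 2 Des was at 1.55 and still called, and 1 of the 13 was called. Des was at 178 and 227 FPKM in the younger WT hearts and at 411 and 568 in the older. No gene of the list was called between genotypes. At E9.5 Nexn was at 1.53 and 4.19 FPKM in WT and 27.6 and 6.41 in cKO. The difference was 2.01 (SE 0.65, adjusted p = 0.198). Pdlim7, another PDZ and LIM protein, was at 261 and 241 FPKM in WT and 680 and 529 in cKO, with a difference of 1.26 (SE 0.34, adjusted p = 0.152). Like Ttn, Nexn was highest in E9.5 cKO replicate 1.

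Of 15 genes whose products bind or regulate titin and the M-band, 11 were tested. In WT 0 were called higher and 6 lower, with a median of -0.81 beside -0.84 for all genes and 46.7% of all genes called lower. Fhl1, a LIM protein at the titin spring, fell by 2.03 (SE 0.52, adjusted p = 0.0204), from 263 and 231 FPKM to 32.4 and 109. Trim54, a ubiquitin ligase of the MuRF family, fell by 1.94 (SE 0.37, adjusted p = 0.0127). Ankrd1, a stress-responsive ankyrin repeat protein that binds the titin spring, fell by 1.83 (SE 0.50, adjusted p = 0.0236), from 302 and 544 FPKM to 70.3 and 181. At E9.5 it was at 340 and 209 FPKM in cKO, above both WT libraries, with a difference of 1.23 (SE 0.50, adjusted p = 0.292). In cKO 0 were called higher and 2 lower over the day, beside 28.5% of all genes, and Trim54 was 1 of them, with a fall of 1.59 (adjusted p = 0.0224) and of 1.94 without E8.5 cKO replicate 2, when 1 of the 11 was called lower. Smpx changed by 1.02 in WT and was not called (adjusted p = 0.106). The changes of Fhl1, Trim54 and Ankrd1 in WT were negative under all 4 other scalings, at -1.04, -1.01 and -0.84 with median-ratio scaling, where none was called.

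All 8 listed factors of sarcomere assembly were tested, and in WT 1 was called higher and 0 lower, while in cKO 3 were called higher and 0 lower (1 and 0 without E8.5 cKO replicate 2). Among all genes 1.4% and 46.7% were called higher and lower in WT and 2.05% and 28.5% in cKO. Hspb1, a small heat shock protein that binds actin, was called in both, with rises of 2.54 (SE 0.27, adjusted p = 0.00676) and 2.64 (SE 0.27, adjusted p = 0.0148), the latter being 2.76 without E8.5 cKO replicate 2. It was at 294 and 455 FPKM in WT against 585 and 692 in cKO at E8.5, and at 2202 and 2066 against 4142 and 3826 at E9.5. Its cKO values were above the WT values at both stages, by 0.80 and 0.90, and neither difference was called (adjusted p = 0.59 and 0.178). Hspb7, a cardiac relative, rose in cKO by 1.46 (adjusted p = 0.0340, or 1.19 and 0.0947 without that library) and changed by 1.004 in WT (adjusted p = 0.0696). Unc45b, the myosin chaperone, and Lmod3, an actin filament nucleator, were not called in either genotype. Of the 12 non-muscle cytoskeletal genes 0 were called higher and 4 lower in WT, and 0 in either direction in cKO. No gene of these lists was called in either comparison of genotypes.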

How the data were processed

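RNA-seq covered 8 libraries of mouse embryonic hearts (4 groups of 2 biological replicates per the methods of the study). Total RNA had been amplified with a Smart-seq chemistry and sequenced on an Illumina HiSeq. The authors deposited FPKM values per gene, after mapping with BWA to mm9 per the labels. The gene positions in the table instead match GRCm38 (91.7% of 9515 tested genes start within 1000 bp of their RefSeq start), and the program that computed FPKM is not given in the sources used here. All 8 value columns were used, 285 symbols listed more than once kept their entry with the highest mean and 27 date-like symbols were kept by position, leaving 24385 features. From these, log2(FPKM + 1) of 10018 genes averaging 1 FPKM or more was fitted with limma 3.58.1 (trend, R 4.3.3) in 1 model of 4 groups, two-sided, with Benjamini-Hochberg adjustment over all tested genes. Calls needed 1.5-fold or more and an adjusted p below 0.05. The test was checked on simulated data that held no shift shared by a whole library. This check thus does not cover the dependence of the stage comparisons on the scaling. Absolute depth is unknown, so no counting intervals are given. The 9 members, the partner lists and the marker lists were chosen with earlier results of these data known. Named from each partner list were up to 4 genes among the largest rises and falls in WT over the day or in cKO against WT at E9.5, and Pdlim7 was added after its values were seen. Paralogs, the 5 genes with the most similar profile and Dgcr8 were named in addition. Promoter sequences are from RefSeq (GRCm38.p6). Alternatives were another pseudocount, no filter, 4 other scalings, a replicate block, the libraries of 1 comparison alone, and each library left out.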

Additional observations from a re-analysis of the deposited data

How the results depend on the processing

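The number of members called in WT over the day was 3, and it was 1 without the filter on low values, 0 with quantile normalization, 1 with the replicate block and 0 to 1 with each library left out. In cKO it was 3, and it was 0 without the filter, 0 with quantile normalization and 0 to 3 with each library left out. The fit without the filter tested 19580 genes, and the causes of these lower counts were not tested. In the fit of the WT libraries alone 5624 genes of the whole table were called over the day, against 4823 in the main fit. In the comparisons of genotypes and in the interaction the count was 0 under every alternative. Counts over all genes in WT over the day were 4823 on the deposited scale, 390 with median-ratio scaling, 115 with quantile normalization, 8470 with the libraries centred on cardiomyocyte markers and 32 to 2289 with 1 of its libraries left out. In cKO they were 3062 on the deposited scale, 477, 307 and 7451 with these scalings, 1518 with the libraries of this comparison alone and 1 to 3157 with 1 of its libraries left out.

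Replicate numbers did not pair the libraries: deviations of same-numbered libraries from their group means had correlations of -0.116 to 0.195. With the replicate block, Actn2 and Nebl in WT had adjusted p-values of 0.063 and 0.0572, and the calls in cKO stood at 3. Because the WT pair was at -0.116, a block with crossed numbers was added after the data were seen, and 2 members were called with it.

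Changes of sign concerned members that were not called. In WT over the day, Ttn was at 0.55 and 0.67 and Myom1 at 0.55 and 0.53 under median-ratio scaling and quantile normalization. With loci of at least 300 bp as the scale Ldb3 was at -0.19 and the median of the members at -0.070. Centred on cardiomyocyte markers, the changes in WT were -0.83 for Ldb3, -0.60 for Tcap and -0.71 for the median, and those in cKO were -0.73 for Ttn, -0.77 for Myom1, -0.64 for Ldb3, -0.40 for Tcap and -0.52 for the median. At E9.5 the same centring gave -0.28 for Actn2 and -0.11 for the median between genotypes, and Csrp3 was at 0.093 and 0.18 with median-ratio scaling and quantile normalization. At E8.5 these 2 scalings gave 0.31 and 0.22 for Mybpc3 and 0.19 and 0.21 for Myom1, and median-ratio scaling gave 0.090 for Csrp3 and 0.024 for the median.

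With each library left out, changes in WT ran from -0.67 to 0.081 for Ttn, -0.33 to 0.38 for Ldb3, -0.34 to 0.86 for Tcap and -0.34 to 0.62 for the median. In cKO they ran from -0.46 to 0.82 for Ttn, -0.12 to 0.40 for Myom1 and -0.090 to 1.10 for Tcap. Differences at E9.5 ran from -0.36 to 0.47 for Actn2, -0.0015 to 0.79 for Myom1, -0.17 to 0.12 for Csrp3, -0.21 to 1.03 for Nebl and -0.13 to 0.63 for the median. Differences at E8.5 ran from -1.22 to 0.17 for Actn2, -0.75 to 0.66 for Mybpc3, -0.50 to 0.21 for Myom1, -0.95 to 0.41 for Csrp3, -0.69 to 0.033 for Nebl and -0.81 to 0.14 for the median. The interaction ran from -0.17 to 1.11 for Ttn, -0.12 to 1.28 for Actn2, -0.031 to 1.37 for Mybpc3, -0.11 to 0.60 for Ldb3, -0.35 to 0.85 for Tcap and -0.43 to 0.92 for Csrp3.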
